A study of Bos taurus with 179 samples.

Results

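The transcriptome of growing bovine oocytes was compared between the middle of the growth phase, 70–109 μm in diameter, and the stage before it, < 70 μm. Of the 179 oocytes sequenced singly, 165 are in the list of oocytes that the study kept, and of these 86 of 70–109 μm and 46 of < 70 μm fell in the comparison. The members were chosen by their measured diameter and size group alone. The 86 larger oocytes came from the groups of 70–79 μm (n = 23), 80–89 μm (n = 24), 90–99 μm (n = 21) and 100–109 μm (n = 18), with a median diameter of 87.9 μm, and the 46 smaller ones from the groups of < 60 μm (n = 21) and 60–69 μm (n = 25), with a median of 60.9 μm. Membership was taken from the oocyte IDs of that list, in which the total count beside an ID was that oocyte's own for 8 of 165, so that the lines of the list may be out of step. All were Bos taurus oocytes from abattoir ovaries, with no treatment compared, denuded of their follicular cells by pipetting, measured and frozen. The methods describe growing oocytes as cut out of the cortex after larger follicles had been aspirated, in a medium that held heparin and cilostamide, a phosphodiesterase inhibitor, and the route by which each oocyte was obtained is not given. Neither the labels nor the methods name the animal or its age, and how many animals each group holds is not given in the sources used here.

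Oocyte growth begins when a primordial follicle is activated and continues while the surrounding granulosa cells multiply, form several layers and then open an antrum. During this phase the oocyte transcribes and stores the mRNA that it will use for meiotic maturation, fertilization and the first cleavages, builds its zona pellucida, and exchanges signals and metabolites with its granulosa cells. Transcription is later silenced, and much of the store is then kept with short poly(A) tails. The libraries here were made from mRNA captured by its poly(A) tail, and values are CPM, counts scaled to a fixed library total, a share of the counted mRNA of a library and not an amount per oocyte. A change in the number of molecules, in the length of the tails or in the rest of the mRNA cannot be told apart.

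The libraries form 2 replicates, which differ in read length (150 bp in the first, 75 bp in the second). The smaller oocytes came from replicate 1 in 20 cases and from replicate 2 in 26, and the larger ones in 55 and 31 cases. The median total was 2461264.5 counts per oocyte for < 70 μm and 1537892 counts for 70–109 μm, and the group of 100–109 μm had the lowest median, 923622 counts. For the tests, the counts of all oocytes of a size group and replicate were summed. This gave 4 sums for < 70 μm and 8 for 70–109 μm, between 10606339 and 46545515 counts. The < 60 μm sum of replicate 1 held only 3 oocytes, while 52.9% of the counts at 100–109 μm in replicate 1 came from 1 oocyte.

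The labelled cell type was checked against marker genes. All 5 oocyte markers, BMP15, BTG4, BCAR4, CPEB1 and AURKC, were detected in every oocyte of both classes, and their summed level ranged from 3722 to 7595 CPM for < 70 μm and from 4401 to 10847 CPM for 70–109 μm. The 6 markers of granulosa and steroidogenic cells that could be matched to an ID summed to at most 31.7 CPM in any oocyte, with a median of 6.04 CPM below 70 μm and 3.69 CPM above. The 12 markers of stroma and smooth muscle had medians of 17.7 and 32.3 CPM and ranged from 3.51 to 52.0 CPM and from 8.81 to 93.2 CPM. Of all genes tested below, 45.5% had a log2 fold change above 0, while 5.13% were called upregulated and 4.37% downregulated. Of the 12 stroma and muscle markers, 4 had enough counts to be tested. Of these 4, 3 had a log2 fold change above 0 and 1 was called, with a median of 0.90. Among these markers, COL5A1 was at 0 in all smaller oocytes. The collagen chain COL1A2 had sums of 0.147, 1.67, 2.25 and 5.61 CPM in the smaller oocytes and rose at 70–109 μm (log2 fold change 1.60 ± 0.45 SE, adjusted p = 0.030 by edgeR's quasi-likelihood test), but not in 5 of the 12 fits that left out 1 sum, while COL4A1 had 1.03 ± 0.32 (adjusted p = 0.051). The 11 markers of blood, immune and endothelial cells had medians of 66.0 and 106 CPM and ranged from 9.64 to 189 CPM and from 11.7 to 287.1 CPM. CSF1R supplied most of these counts, with means of 75.3 and 108 CPM, while CD14 and CD34 were at 0 in all smaller oocytes and C1QB in all larger ones. Of the 6 of these tested, 4 had a log2 fold change above 0 and 0 were called by edgeR, with a median of 0.53. Of the 4 granulosa markers tested, 1 lay above 0 and 0 were called, with a median of -0.66. Beside the shares of all genes given above, 0 calls in lists of this size are not a result about these cell types. GATA4 (-2.50), HSD17B1 (-0.98), CD74 (-2.99) and CD163 (-2.79), each at most 5.88 CPM in any sum, did not pass (adjusted p between 0.084 and 0.11). Nor did FSHR (-0.35) or the markers of these lists above 0, FZD4 (0.35), CLDN5 (2.01), CD68 (1.11), HBA (0.85) and CSF1R (0.20). The mean summed level over the oocytes of a size group and replicate lay above all 4 values of < 70 μm in 7 of 8 cases for the oocyte markers, in 4 of 8 for stroma, in 4 of 8 for blood, immune and endothelial cells and in 0 of 8 for granulosa cells. The part of these markers in the results below was not tested.

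Of 14087 genes tested, 722 (5.13%) were upregulated and 616 (4.37%) were downregulated in oocytes of 70–109 μm, at an adjusted p below 0.05. Most changes were moderate in size. The median log2 fold change was 1.11 among the upregulated and -1.02 among the downregulated genes, and a change of more than 4-fold was fitted for 102 and 118 genes. The genes were called on these same sums, so how far the sums stood apart is a description and not support for the calls. Within each replicate, every mid-growth sum lay above both sums of < 70 μm for 51.4% of the upregulated genes and below both for 49.5% of the downregulated genes, against 3.81% and 4.19% of all genes tested. All 8 sums lay above all 4 for 112 upregulated genes (0.98% of all genes tested did so) and below all 4 for 124 downregulated genes (1.32%). The number of DEGs depended on which sums and size groups entered and on the unit. Without the 60–69 μm sum of replicate 1, 338 genes were upregulated and 166 downregulated, 1 sum per size class and replicate gave 414 and 82, and single oocytes as units turned the balance, with 1864 and 2427. Without the < 60 μm group, 134 genes were upregulated and 30 downregulated, and without the 100–109 μm group 307 and 74, while without the 1 dominant oocyte of 100–109 μm the counts were 871 and 632. The replicates differ in read length, and without the replicate in the fit 18 and 8 genes passed.

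**Figure D1:**
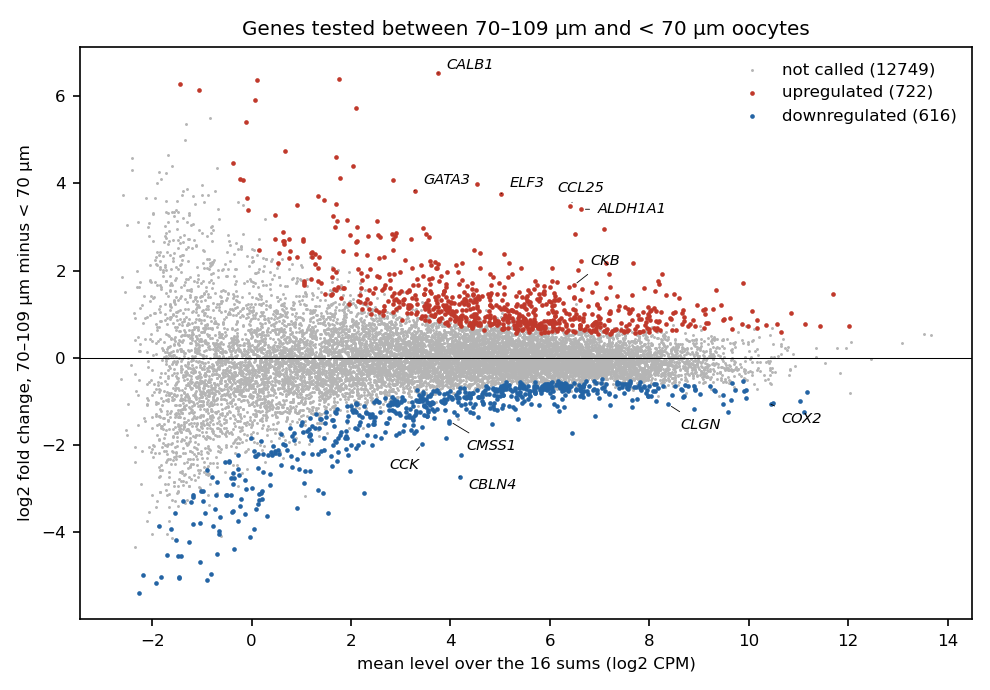
Log2 fold change between 70–109 μm and < 70 μm (vertical) against the mean level over the 16 sums in log2 CPM (horizontal), 1 point per gene, with upregulated genes in red, downregulated in blue and the other 12749 in grey. Genes with low levels needed larger changes to pass, and CALB1 and CBLN4 are among the genes far from 0.

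Each mid-growth size group was then set against the same 4 sums of < 70 μm, and the count of DEGs was larger at each larger size. Oocytes of 70–79 μm had 19 upregulated genes (0.135% of those tested) and 0 downregulated genes in edgeR's quasi-likelihood test, with 1063 genes at an unadjusted p below 0.05. There were 90 (0.639%) and 3 (0.0213%) at 80–89 μm, and 295 (2.09%) and 49 (0.348%) at 90–99 μm. At 100–109 μm, 1448 genes (10.3%) were upregulated and 1003 (7.12%) downregulated, more than in the mean of the 4 groups. The 4 comparisons share their controls, so they are given side by side and not as independent evidence, and the group with the most DEGs also had the lowest median total per oocyte. When each oocyte was thinned to 250000 counts before summing, the mean of the 4 groups gave 1046 upregulated and 745 downregulated genes. The thinned counts were not tested for each size group against < 70 μm, so the rise with size was not compared at equal depth.

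**Figure D2:**
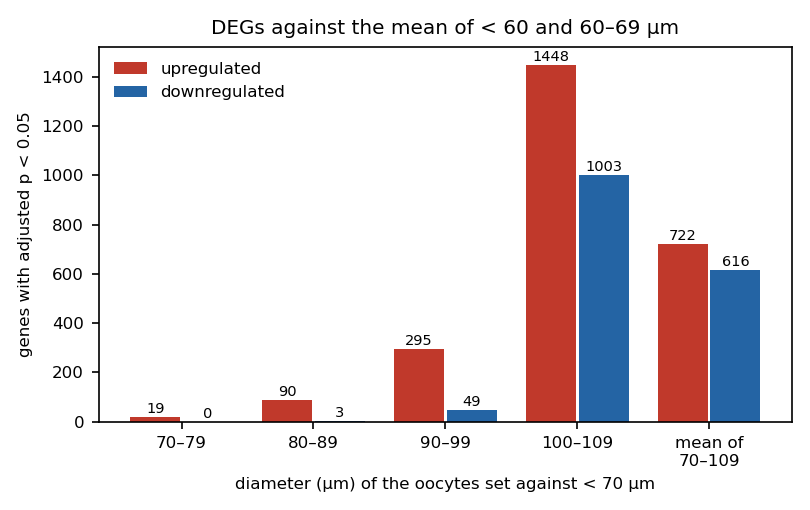
Number of genes with an adjusted p below 0.05 (vertical) in each mid-growth size group, in μm (horizontal), against the mean of the < 60 and 60–69 μm groups, with upregulated genes in red and downregulated in blue. The bars rise from 19 and 0 at 70–79 μm to 1448 and 1003 at 100–109 μm, and the last pair is the mean of the 4 groups.

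The genes called in the mean of the 4 groups were chosen on these same groups and controls, so their changes in each group are a description. The median log2 fold change was 0.73, 0.89, 1.12 and 1.68 from 70–79 to 100–109 μm among the upregulated genes, and -0.66, -0.80, -0.98 and -1.60 among the downregulated. The largest of the 4 changes fell at 100–109 μm for 574 and 527 genes.

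Gene symbols were at hand for 2923 of the genes tested, among them 162 upregulated and 107 downregulated genes, mostly names early in the alphabet. The 15 upregulated genes with the smallest adjusted p are described first. They were picked by adjusted p on these same sums, so what follows describes them and is not support for the calls. All 15 kept their call in the 12 fits that left out 1 sum. The size classes did not overlap within either replicate for 14 of the 15, against 3.81% of all genes tested. With no replicate block, 7 of the 15 were called. For 7 of them the symbol came from a list of genes lowly expressed in a single size group of these oocytes. Their presence here is therefore not independent of their pattern. Each of these 7 was detected in at most 9 of the 21 oocytes of the smallest size group, which is part of the controls. The low detection of GATA3 and CALB1 in that group, given below, is thus not independent of how they came to be named.

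Of the 15, 4 encode secreted proteins. CCL25, a chemokine that attracts cells carrying the receptor CCR9, had sums of 1.76, 1.52, 7.74 and 1.71 CPM in oocytes of < 70 μm and from 6.75 through a median of 34.7 to 173 CPM in the 8 sums of 70–109 μm. In single oocytes its level ranged from 0 through a median of 2.45 to 17.4 CPM below 70 μm and from 0 through 29.8 to 265.97 CPM above. The classes overlapped only between replicates, with the mid-growth sums of replicate 2 the lower ones. The log2 fold change was 3.48 ± 0.32 (SE), with an adjusted p of 9.2e-06, and it grew from 2.42 at 70–79 μm to 5.26 at 100–109 μm.

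FGFBP1, which releases fibroblast growth factors from the matrix, had sums of 1.03, 1.69, 1.70 and 1.81 CPM in the smaller oocytes and from 6.54 through 11.1 to 22.4 CPM in the larger ones, so that all 8 sums stood above all 4. The fold change was 2.83 ± 0.36 on the log2 scale (adjusted p = 0.00011). CST6, a cystatin that inhibits cysteine proteases, rose by 1.58 ± 0.21 (adjusted p = 0.00017), from 11.5–23.9 CPM to 24.1–83.7 CPM. Both classes stood apart in these sums, by a narrow margin for CST6. Clusterin (CLU), an extracellular chaperone, had 3.21–18.1 CPM against 8.53–138 CPM, with a log2 fold change of 1.68 ± 0.23 (adjusted p = 0.00020) and 5 of 8 sums above all of the smaller oocytes.

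ALDH1A1, which oxidises retinaldehyde to retinoic acid, was among the genes with the clearest separation. Its sums were 1.40, 5.24, 20.0 and 20.8 CPM below 70 μm and ran from 41.4 through 69.8 to 277.2 CPM at 70–109 μm. At least 1 count was present in 32 of 46 smaller and 83 of 86 larger oocytes, with medians of 7.11 and 73.0 CPM. Its log2 fold change was 3.41 ± 0.33 (adjusted p = 1.3e-05). Of the 2 other enzymes of retinoic acid synthesis tested, ALDH1A2 had a log2 fold change of 0.49 (adjusted p = 0.14) and ALDH1A3 of -0.31 (adjusted p = 0.59). Thus 1 of 3 members was called, beside 5.13% upregulated and 4.37% downregulated of all genes. As ALDH1A1 was picked for its small adjusted p, this count is not a result about the list.

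A further 3 of the 15 are metabolic enzymes. AKR1A1, an aldo-keto reductase that reduces aldehydes, had sums of 15.5, 10.9, 30.9 and 14.8 CPM in the smaller oocytes and from 22.4 through 78.4 to 247 CPM in the larger ones (log2 fold change 2.02 ± 0.23, adjusted p = 3.9e-05). Creatine kinase B (CKB), which buffers ATP through phosphocreatine, had 29.03, 11.8, 56.96 and 15.5 CPM and then 26.7 to 271 CPM (1.66 ± 0.21, adjusted p = 0.00011). Agmatinase (AGMAT), which makes putrescine from agmatine, had 10.4–21.3 CPM and then 23.6–82.8 CPM, with all 8 sums above all 4 (1.40 ± 0.20, adjusted p = 0.00030). The ranges of AKR1A1 and CKB overlapped across the replicates, both being higher in replicate 1, but not within a replicate.

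GATA3, ELF3 and ATF3 are transcription factors. GATA3, a zinc finger factor of the GATA family, was close to absent in the smallest oocytes, with sums of 0 and 0.444 CPM at < 60 μm, 1.45 and 0.903 CPM at 60–69 μm, and from 2.46 through 7.76 to 23.4 CPM at 70–109 μm. At least 1 count of GATA3 was found in 4 of 21 oocytes of < 60 μm, 15 of 25 of 60–69 μm, 20 of 23 of 70–79 μm and 18 of 18 of 100–109 μm. Its log2 fold change was 3.84 ± 0.42 (adjusted p = 3.4e-05). ELF3, an ETS factor of epithelia, had sums of 0.294, 1.63, 2.68 and 2.42 CPM and then from 5.42 through 23.7 to 166 CPM (3.77 ± 0.41, adjusted p = 3.4e-05). ATF3, a bZIP factor induced by stress, rose less, by 2.16 ± 0.28 (adjusted p = 0.00017), from 1.54–5.93 CPM to 5.48–45.9 CPM.

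CALB1 encodes calbindin, a protein that buffers calcium. It had 0 counts in the 21 oocytes of < 60 μm, whose sums held 13452646 counts in replicate 1 and 43888471 in replicate 2, and 0 of 21 oocytes allows a share of oocytes with a count of up to 14.3%. It was then found in 16 of 25 oocytes of 60–69 μm, 16 of 23 of 70–79 μm, 21 of 24 of 80–89 μm, 18 of 21 of 90–99 μm and 18 of 18 of 100–109 μm. The < 60 μm oocytes came mostly from replicate 2 (18 of 21) and those of 60–69 μm from replicate 1 (17 of 25), so a floor of 3 counts per < 60 μm sum was set within each replicate. Against the floor of 0.223 CPM in replicate 1, the level at 60–69 μm was at least 2.41-fold higher, that at 70–79 μm at least 22.9-fold and that at 100–109 μm at least 50.8-fold higher. Against the floor of 0.0684 CPM in replicate 2, these were at least 106-fold, 46.9-fold and 448.3-fold higher. The sums of 60–69 μm were 0.531 and 7.22 CPM and those of 70–109 μm ranged from 3.02 through 11.1 to 30.2 CPM, which overlap. CALB1 passed the test (adjusted p = 8.9e-05), but not without the < 60 μm group (adjusted p = 0.10).

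The other 3 of the 15 are EFR3B, PSD2 and ARHGEF37. EFR3B, which anchors a phosphatidylinositol kinase at the plasma membrane, rose by 2.83 ± 0.34 on the log2 scale (adjusted p = 7.7e-05), from 0.592–2.10 CPM to 2.40–14.0 CPM. PSD2, an exchange factor for ARF GTPases, had 0.441–2.28 CPM and then 5.30–21.6 CPM (2.79 ± 0.38, adjusted p = 0.00020). ARHGEF37 had 30.4–63.1 CPM and then 57.7–218.6 CPM (1.31 ± 0.18, adjusted p = 0.00020). All 8 sums were above all 4 for EFR3B and PSD2, and 7 of 8 for ARHGEF37, the gene of this set whose changes differed least between size groups, from 1.01 at 70–79 μm to 1.62 at 90–99 μm.

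**Figure D3:**
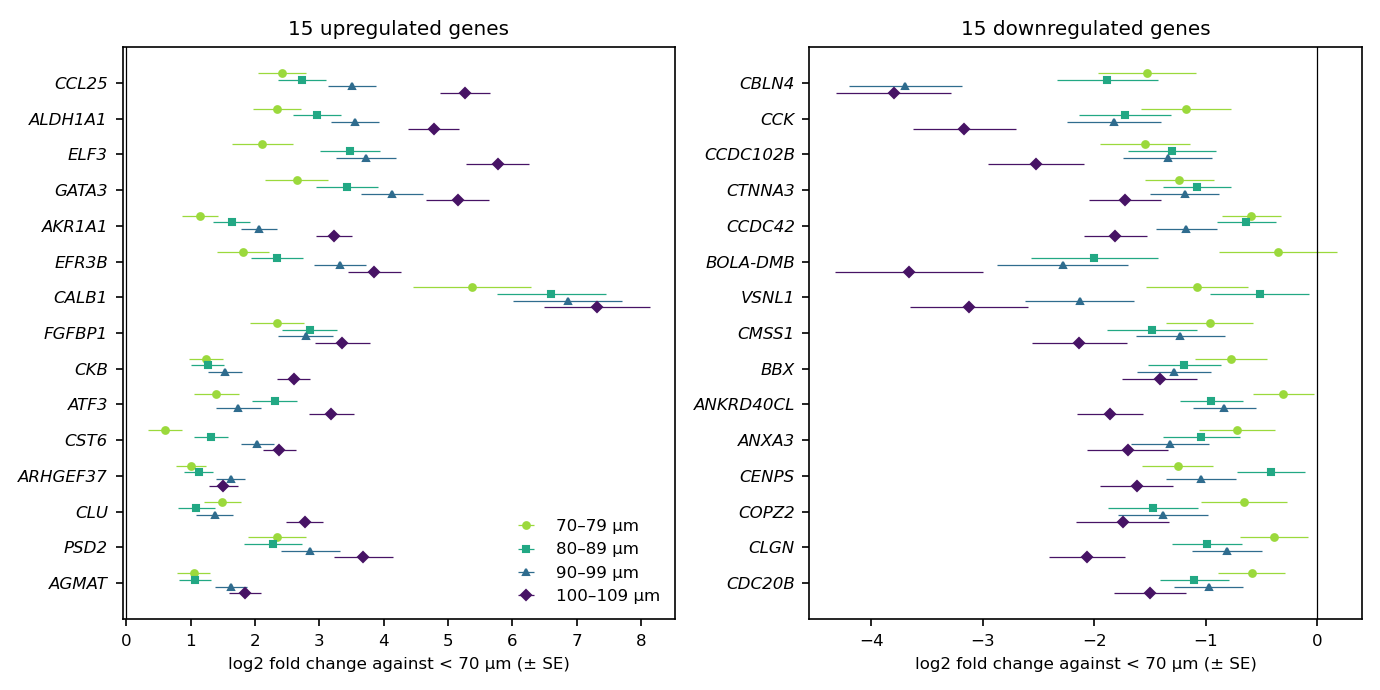
Log2 fold change (horizontal, ± SE of the fit) of each mid-growth size group against < 70 μm, for the 15 upregulated genes (left) and the 15 downregulated genes (right) with the smallest adjusted p. The 100–109 μm value is the farthest from 0 for 14 and 15 of these genes, and the 4 values of a gene share the same control sums.

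The 15 downregulated genes were chosen by the same rule on the same sums, so these counts too are a description. All 15 kept their call in the 12 fits that left out 1 sum. Of the 15, 11 had no overlap within either replicate, against 4.19% of all genes tested, and 2 were called with no replicate block. For 3 of the 15 the symbol came from a list of genes selected on detection in 1 size group. Without the < 60 μm group, 4 of the 15 passed, against 14 of the 15 upregulated genes. Without the 100–109 μm group, 12 of the 15 passed, against 15 of the 15 upregulated genes, and CLGN (adjusted p = 0.071), VSNL1 (0.053) and ANKRD40CL (0.087) did not. None of them passed at 70–79 μm alone, 7 did at 90–99 μm and all 15 at 100–109 μm.

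CBLN4, a secreted cerebellin that organises synapses, had sums of 77.3, 44.5, 33.8 and 39.5 CPM in oocytes of < 70 μm and from 2.13 through 6.59 to 20.6 CPM at 70–109 μm. Every one of the 46 smaller oocytes held at least 1 count, with a median of 40.7 CPM, against 71 of 86 larger oocytes with a median of 5.77 CPM. The log2 fold change was -2.73 ± 0.29 (adjusted p = 2.5e-05), from -1.53 at 70–79 μm to -3.80 at 100–109 μm. Cholecystokinin (CCK), a peptide hormone, had nearly equal sums of 26.0, 27.6, 26.8 and 21.5 CPM in the smaller oocytes and from 2.20 through 7.63 to 14.5 CPM in the larger ones (-1.97 ± 0.26, adjusted p = 0.00018). VSNL1, a neuronal calcium sensor, had 11.1–17.6 CPM and then 1.11–10.99 CPM (-1.71 ± 0.30, adjusted p = 0.0016). For these 3 genes all mid-growth sums lay below all sums of the smaller oocytes.

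**Figure D4:**
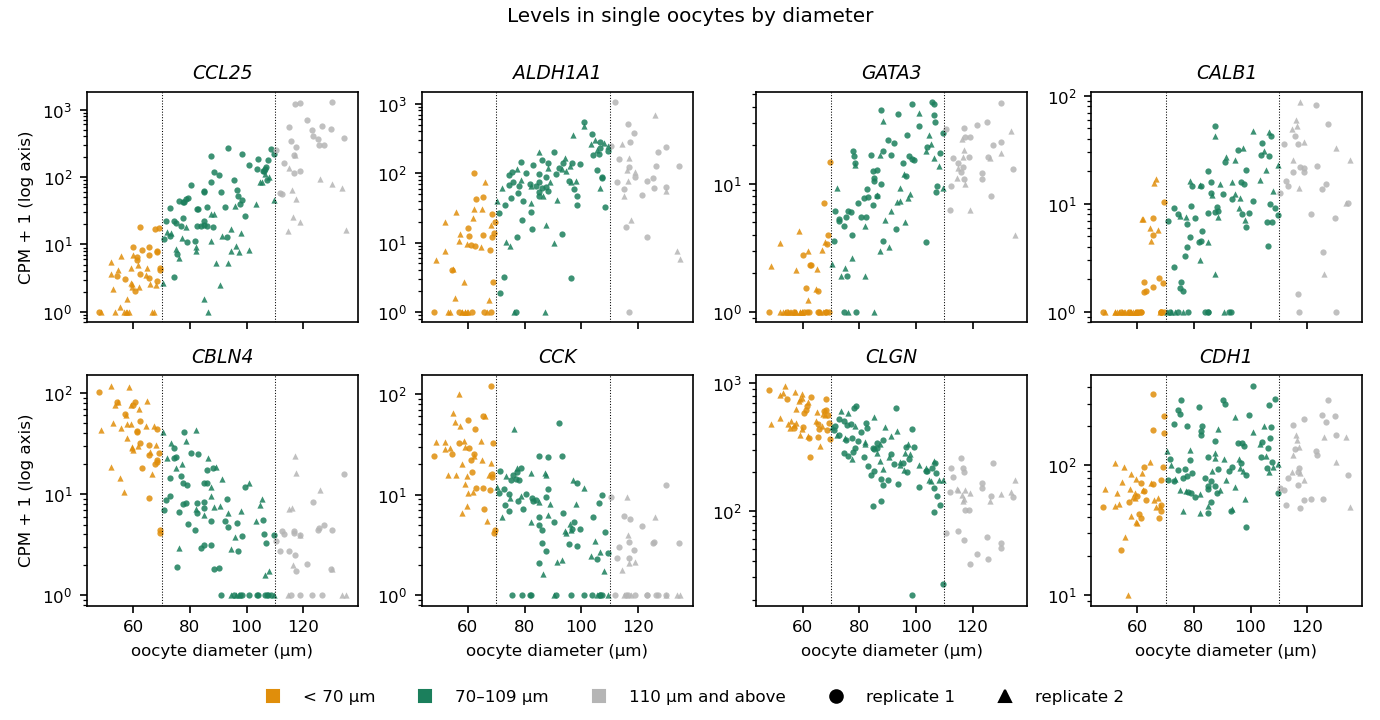
Level of 8 genes in each of the 165 oocytes, as CPM + 1 on a log axis (vertical), against the diameter in μm (horizontal), with < 70 μm in orange, 70–109 μm in green, the oocytes of 110 μm and above in grey, circles for replicate 1 and triangles for replicate 2. CALB1 is at 0 in all oocytes of < 60 μm, and CBLN4 falls from a median of 40.7 to 5.77 CPM between the classes.

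Another 3 of the 15 act in the secretory pathway or in making ribosomes. Calmegin (CLGN), a chaperone of the endoplasmic reticulum known from germ cells, was abundant at 682, 598, 555 and 505 CPM in the smaller oocytes and ranged from 88.1 through 332 to 493 CPM in the larger ones, with all 8 sums lower (-1.06 ± 0.21, adjusted p = 0.0034). COPZ2, a subunit of the COPI vesicle coat, had 9.60–24.3 CPM and then 3.82–12.1 CPM (-1.31 ± 0.26, adjusted p = 0.0034). CMSS1, which takes part in making the small ribosomal subunit, had 54.98, 37.3, 27.6 and 15.96 CPM and then 5.90 to 16.4 CPM (-1.45 ± 0.26, adjusted p = 0.0019). The mid-growth range of CMSS1 and COPZ2 reached that of the smaller oocytes across replicates, but not within one.

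CTNNA3, an alpha-catenin that ties cadherins to actin, had 18.3–34.2 CPM and then 7.22–14.7 CPM, and CCDC42, a coiled-coil protein known from the sperm tail, 88.3–181 CPM and then 32.96–83.4 CPM. BBX, a protein with an HMG box, fell from 46.1–85.0 CPM to 17.5–42.9 CPM, and ANXA3, a calcium-dependent phospholipid-binding annexin, from 36.5–98.7 CPM to 14.9–33.6 CPM. In these 4 genes all 8 sums lay below all 4. Their log2 fold changes were -1.31 ± 0.20, -1.05 ± 0.18, -1.16 ± 0.21 and -1.20 ± 0.23, with adjusted p between 0.00055 and 0.0030.

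The remaining genes overlapped to some extent. CENPS, an inner kinetochore protein also found in DNA repair complexes, had sums of 233.7, 226.7, 177 and 271 CPM and then from 47.2 through 112 to 255 CPM (-1.08 ± 0.21, adjusted p = 0.0030). CCDC102B fell by 1.68 on the log2 scale, CDC20B by 1.04 and ANKRD40CL by 0.99, with 7, 6 and 7 of the 8 sums below all of the smaller oocytes. BOLA-DMB, an MHC class II chain that helps to load peptides, fell by 2.07 ± 0.36 (adjusted p = 0.0015), from 3.56–19.2 CPM to 0.186–5.60 CPM. The invariant chain CD74, an immune marker that acts with MHC class II, had 1.32, 0.634, 1.19 and 0.333 CPM in the smaller oocytes and 0 to 0.856 CPM in the larger ones (adjusted p = 0.084), and its part in the change of BOLA-DMB was not tested. BOLA-DMB belongs to a gene family with similar sequences, as do the actins and coatomer subunits, and how reads with several alignments were counted is not given in the sources used here.

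Of the IDs without a symbol, the smallest adjusted p belonged to ENSBTAG00000007169, with 7.72, 5.12, 37.0 and 14.4 CPM in the smaller oocytes and 32.0 to 267 CPM in the larger ones (log2 fold change 2.84 ± 0.21, adjusted p = 5.3e-07). ENSBTAG00000006965 rose by 2.18 ± 0.22 (adjusted p = 1.4e-05). ENSBTAG00000005385 fell by 1.52 ± 0.19 (adjusted p = 9.9e-05) and ENSBTAG00000047739 by 1.73 ± 0.21 (adjusted p = 0.00010). The first 2 were called at every one of the 4 mid-growth sizes, and the files pair none of the 4 with a name.

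Levels were still moving within the mid-growth range. Between 70–79 and 100–109 μm, 86 genes (0.610% of those tested) were higher and 32 (0.227%) lower at the larger size. The count rests on single sums, since 4 genes passed without the 100–109 μm sum of replicate 1, 1 gene without the 70–79 μm sum of replicate 1 and 14 without that of replicate 2, against 38 without the dominant oocyte. All 179 deposited oocytes gave 19 genes (0.135%), and oocytes matched to the study's list by their total, a choice made after seeing the data, gave 65 (0.461%). Among the higher genes were CCL25 (log2 fold change 2.84 ± 0.45, adjusted p = 0.0059), ELF3 (3.66 ± 0.59, adjusted p = 0.0059) and AKR1A1 (2.08 ± 0.35, adjusted p = 0.0080). Among the lower ones were BOLA-DMB (-3.31 ± 0.70), ANKRD40CL (-1.55 ± 0.32) and ADAM23, a membrane protein of the disintegrin family (-2.45 ± 0.52), with adjusted p between 0.031 and 0.035. ADAM23 had 10.6–21.2 CPM in oocytes of < 70 μm, 15.4 and 14.2 CPM at 70–79 μm and 2.89 and 2.60 CPM at 100–109 μm.

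The gene lists used next held only genes with a symbol at hand, mostly names early in the alphabet. Each list is thus a part of its process, and a count of 0 does not extend to members left out. In all, 408 genes of 31 lists covering processes of the growing oocyte were then counted. Of these, 21 (5.15%) were upregulated and 16 (3.92%) downregulated, shares close to those of all genes tested, and their median log2 fold change was -0.07 against -0.06 for all genes. In 8 lists no member was called. Outside the 30 genes above, 31 called members of the lists are named below, all of them also called by DESeq2, but only 5 of them, CTSC, ATG2A, CCNE2, ARID1A and CDH1, kept the call in each of the 12 fits that left out 1 sum. The call was lost for 25 of the 31 without the < 60 μm sum of replicate 1, and for 23 without each of the sums of 60–69 μm. Of the 31, 3 were called without the < 60 μm group and 8 without the 100–109 μm group.

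**Figure D5:**
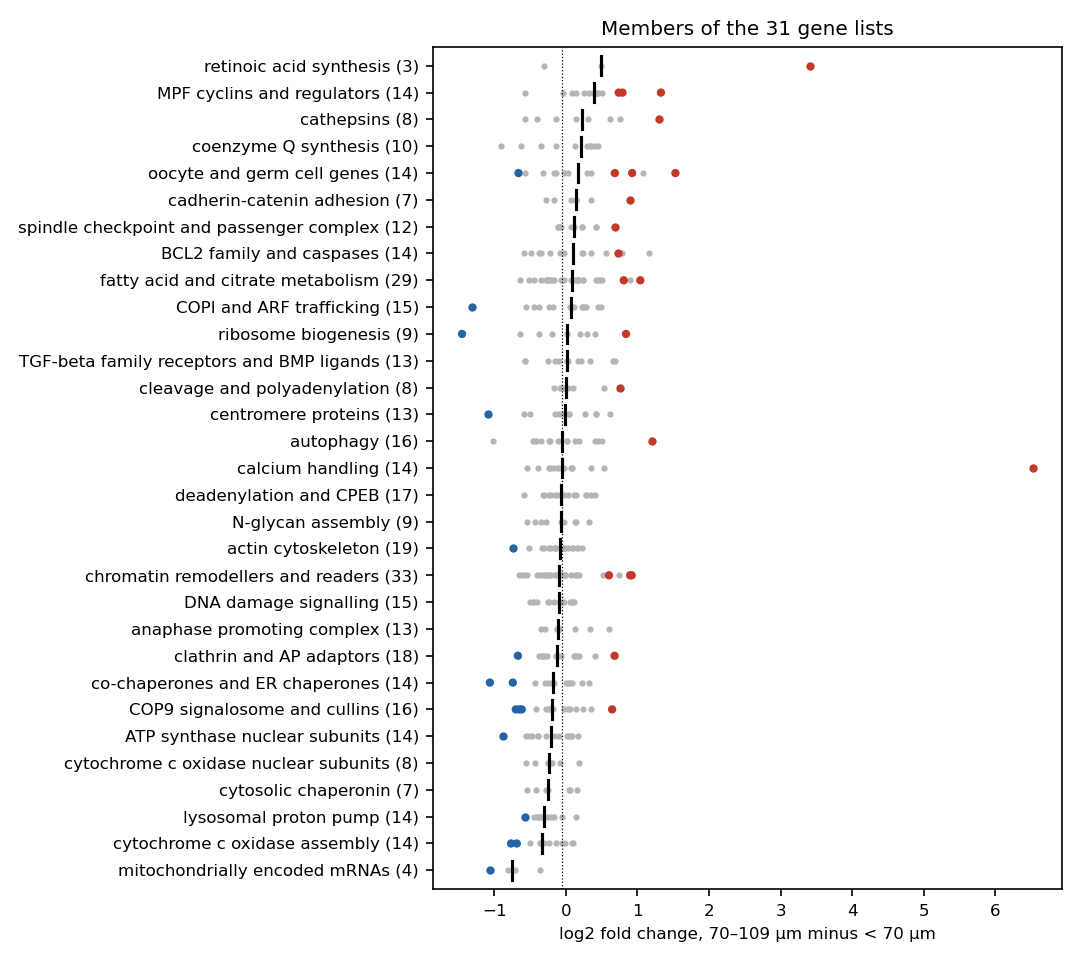
Log2 fold change between 70–109 μm and < 70 μm (horizontal) of the members of 31 gene lists (rows, with the number of genes tested in parentheses), with upregulated genes in red, downregulated in blue, other members in grey, the median of a list as a black bar and the median of all genes as a dotted line. Most members lie near 0, and the 4 mitochondrially encoded mRNAs with a symbol have the lowest median, -0.76.

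Among genes known for their role in oocytes and germ cells, 3 of 14 were upregulated and 1 was downregulated, beside 5.13% and 4.37% of all genes. Their median log2 fold change was 0.17. For 2 of the 14 the symbol came from a list of genes selected on detection in 1 size group, so the count is not independent of their pattern. ACTL8, an actin-like protein of germ cells, rose from 0.333–4.55 CPM to 2.35–42.8 CPM (1.53 ± 0.42, adjusted p = 0.028). CD9, the tetraspanin of the egg membrane needed for sperm fusion, rose by 0.93 ± 0.26 (adjusted p = 0.030), and AURKC, the Aurora kinase of meiosis, by 0.68 ± 0.18 (adjusted p = 0.023). ADAD1, an RNA-binding protein of germ cells, fell by 0.66 ± 0.19 (adjusted p = 0.036), with all 8 sums (96.8–261.98 CPM) below those of the smaller oocytes (267–365 CPM). These calls held in 9, 7, 9 and 2 of the 12 fits that left out 1 sum.

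BMP15, the growth factor by which the oocyte directs its granulosa cells, had sums of 568, 794, 796 and 783 CPM below 70 μm and from 800 through a median of 1102 to 1592 CPM above. All 8 mid-growth sums thus lay above all 4, but the log2 fold change of 0.66 ± 0.25 did not pass (adjusted p = 0.099 by edgeR). Whether BMP15 passed depended on the fit. It did by DESeq2 (adjusted p = 0.039), with 250000 counts per oocyte (0.011), with only the 6 size groups in the fit (0.025), with no filter on low counts (0.033), without the dominant oocyte (0.047), and with single oocytes as units, before (1.4e-05) or after ComBat-seq (2.5e-06). It did not in the 12 fits that left out 1 sum, without the < 60 μm group (0.45), without the 100–109 μm group (0.21) or with no replicate block (0.53). The lists named next stand beside 5.13% upregulated and 4.37% downregulated of all genes. At their size, 0 or 1 calls are not a result about the list. In edgeR's test 0 of the 13 ligands, receptors and regulators of the TGF-beta family, BMP15 included, were called, with a median of 0.02. BMP4 had 0.69 ± 0.27 (adjusted p = 0.12). Of the 17 genes of deadenylation and the CPEB family, 0 were called, with a median of -0.06. There BTG3 had -0.59 ± 0.21 (adjusted p = 0.085) and CPEB4 0.40 ± 0.23 (adjusted p = 0.29). Of 8 cleavage and polyadenylation factors 1 was called, CPSF4, which rose by 0.75 ± 0.23 (adjusted p = 0.042).

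Of 14 cyclins and regulators of the maturation promoting factor, 3 were upregulated and 0 downregulated in edgeR's test, beside 5.13% and 4.37% of all genes, with a median of 0.40. Cyclin E2 (CCNE2), which activates CDK2, had 7.57, 7.72, 10.6 and 14.1 CPM in the smaller oocytes and from 14.9 to 48.0 CPM in the larger ones (1.33 ± 0.25, adjusted p = 0.0029), with no overlap. CCNE1 rose by 0.79 ± 0.22 (adjusted p = 0.031) and the phosphatase CDC25B, which activates cyclin-dependent kinases, by 0.74 ± 0.22 (adjusted p = 0.036). CCNB1 and CDK1, the subunits of the factor itself, had 0.15 and 0.44 (adjusted p = 0.65 and 0.18).

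Machinery of chromosome segregation was counted beside the 5.13% upregulated and 4.37% downregulated of all genes. None of the 13 subunits and activators of the anaphase promoting complex passed, CDC20 having 0.60 ± 0.19 (adjusted p = 0.052) and ANAPC11 0.34 ± 0.19 (adjusted p = 0.27). AURKC was the 1 gene of 12 called in the spindle checkpoint and passenger complex, and CENPS the 1 of 13 among centromere proteins. None of 15 DNA damage genes passed, with BRCA1 at -0.46 ± 0.21 (adjusted p = 0.18) and CHEK1 at -0.41 ± 0.18 (adjusted p = 0.16). Among 33 chromatin remodellers and readers, 3 were upregulated, the SWI/SNF subunit ARID1A (0.90 ± 0.19, adjusted p = 0.0048) and the chromatin assembly factors CHAF1B (0.92 ± 0.26, adjusted p = 0.031) and CHAF1A (0.60 ± 0.18, adjusted p = 0.042), while the median of the list was -0.09.

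Adhesion and survival genes each gave 1 call, where 5.13% of all genes were upregulated and 4.37% downregulated. E-cadherin (CDH1), which joins the oocyte to its granulosa cells, had 36.0, 55.7, 66.2 and 66.1 CPM below 70 μm and 77.1 to 138 CPM above, without overlap (0.90 ± 0.18, adjusted p = 0.0042), and was the 1 of 7 cadherin and catenin genes called. CASP6, an executioner caspase, had 115–183 CPM and then 191–276.98 CPM, also without overlap (0.72 ± 0.15, adjusted p = 0.0061), as the 1 of 14 caspase and BCL2 family genes. It was not called without the 60–69 μm sum of replicate 1. The cytoplasmic actin ACTG1 fell by 0.73 ± 0.18 (adjusted p = 0.017), alone among 19 genes of the actin cytoskeleton.

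Lists of vesicle traffic and protein turnover are given beside the same shares, 5.13% upregulated and 4.37% downregulated of all genes, and single calls in lists of this size are not a result about the list. AP1S1, of the Golgi clathrin adaptor, rose by 0.68 ± 0.20 (adjusted p = 0.041) and AP3B1, of the adaptor to lysosomes, fell by 0.67 ± 0.17 (adjusted p = 0.020), out of 18 clathrin and adaptor genes. COPZ2 was the 1 of 15 COPI and ARF genes. In the COP9 signalosome, which removes NEDD8 from cullins, COPS4 rose by 0.65 ± 0.18 (adjusted p = 0.027) while the catalytic subunit COPS5 (-0.70 ± 0.19, adjusted p = 0.023), COPS8 (-0.62 ± 0.16, adjusted p = 0.018) and COPS9 (-0.65 ± 0.19, adjusted p = 0.037) fell, and 0 of the cullins in this list of 16 were called. The lysosomal protease CTSC rose by 1.31 ± 0.23 (adjusted p = 0.0017), as 1 of 8 cathepsins, and ATG2A, a lipid transfer protein of autophagosome growth, by 1.201 ± 0.24 (adjusted p = 0.0034), as 1 of 16 autophagy genes. ATP6V1C1, a subunit of the lysosomal proton pump, fell by 0.57 ± 0.17 (adjusted p = 0.039), as 1 of 14.

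In protein folding, again beside 4.37% downregulated and 5.13% upregulated of all genes, CLGN and CACYBP (-0.74 ± 0.21, adjusted p = 0.032) were the 2 downregulated genes of 14 co-chaperones and chaperones of the endoplasmic reticulum. None of the 7 subunits of the cytosolic chaperonin passed, CCT6A having -0.54 ± 0.21 (adjusted p = 0.10) and CCT3 -0.43 ± 0.19 (adjusted p = 0.15), nor any of the 9 genes of N-glycan assembly, with ALG9 at -0.54 ± 0.17 (adjusted p = 0.051) and ALG1 at -0.34 ± 0.18 (adjusted p = 0.23). In ribosome biogenesis CMSS1 fell and BUD23, a methyltransferase for ribosomal RNA, rose by 0.84 ± 0.22 (adjusted p = 0.021), out of 9. CALB1 was the 1 of 14 genes of calcium handling.

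Of the respiratory chain lists, the symbols at hand covered 4 mitochondrially encoded mRNAs, COX1, COX2, ATP6 and ATP8, and the others were not analysed here. Downregulated genes were 1 of these 4, 1 of 14 nuclear subunits of ATP synthase, 0 of 8 nuclear subunits of cytochrome c oxidase, 2 of its 14 assembly factors and 0 of 10 genes of coenzyme Q synthesis, beside 4.37% of all genes, and 0 members were upregulated in edgeR's test, beside 5.13%. COX2, a mitochondrially encoded subunit of cytochrome c oxidase, had sums of 2886, 2126, 1982 and 2295 CPM below 70 μm and from 331 to 2036 CPM above, 7 of the 8 below all 4 (-1.06 ± 0.25, adjusted p = 0.011). COX1, ATP6 and ATP8 had -0.36 (COX1), -0.71 (ATP6) and -0.81 (ATP8), with adjusted p of 0.47, 0.088 and 0.059. Of the nuclear genes, ATP5F1E, of the ATP synthase stalk, fell by 0.88 ± 0.24 (adjusted p = 0.029), with a median of -0.21 for its list. The assembly factors COA1 (-0.69 ± 0.18, adjusted p = 0.019) and COX10, which makes haem A precursors (-0.77 ± 0.22, adjusted p = 0.032), also fell, with a median of -0.33 for theirs, and the call on COX10 held in 0 of the 12 fits that left out 1 sum. Among the members not called were the cytochrome c oxidase subunits COX7A2 (-0.44 ± 0.21, adjusted p = 0.19) and COX6C (-0.56 ± 0.27, adjusted p = 0.20). In coenzyme Q synthesis, where the median was 0.21, COQ5 had -0.62 ± 0.21 (adjusted p = 0.070) and COQ10A -0.91 ± 0.35 (adjusted p = 0.10). In fatty acid and citrate metabolism, the acyl-CoA synthetases ACSL6 (0.81 ± 0.19, adjusted p = 0.013) and ACSS2 (1.04 ± 0.30, adjusted p = 0.035) rose, 2 of 29.

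COX1, COX2, ATP6 and ATP8 were also added up in each oocyte. Whether their sum passed a test depended on how oocytes were combined, by a mean of their log2 values or by summing counts. Their mean log2 summed CPM per size group and replicate was 13.65 ± 0.21 (SD, n = 4) for < 70 μm and 12.93 ± 0.59 (SD, n = 8) for 70–109 μm, a difference of -0.72 (exact permutation test within replicates, two-sided p = 0.027). As a share of the summed counts the exact p was 0.053, and with TMM scaling of the sums 0.058. The difference was -0.91 within replicate 1 and -0.52 within replicate 2, and the lowest values were 11.93 and 12.59 at 100–109 μm. Leaving out 1 of 12 values gave p between 0.0067 and 0.093, and the p was above 0.05 without < 60 μm in replicate 2 (0.093), 60–69 μm in replicate 2 (0.067), 70–79 μm in replicate 1 (0.060) or 90–99 μm in replicate 1 (0.067). The study had removed oocytes with a high share of noncoding mitochondrial reads before this set was fixed, and with all deposited oocytes the difference was -1.08 (p = 0.0089).

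The number of genes seen per oocyte was compared at equal depth. With every oocyte thinned to 250000 counts, the means per size group and replicate were 9640 ± 228.7 genes (SD, n = 4) below 70 μm and 9713 ± 351 genes (SD, n = 8) above, a difference of 72.5 genes (exact permutation test within replicates, two-sided p = 0.60), less than the spread between sums. With all deposited oocytes it was 275.1 genes (exact p = 0.10). The ranges of 9381 to 9869 and 9125 to 10172 genes overlapped, and the difference was 124 genes within replicate 1 and 20.9 genes within replicate 2. Without thinning, where the smaller oocytes were the more deeply sequenced, the difference was -286.8 genes (exact p = 0.31).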

How the data were processed

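Single oocytes were lysed, their mRNA was captured by the poly(A) tail and amplified by a Smart-seq2-type protocol, and Nextera XT libraries were sequenced. Reads were trimmed with Trim Galore (version 0.6.6 in the submitters' processing notes) and aligned to the ARS-UCD1.2 genome with HISAT2. The authors deposited raw read counts per gene model from SeqMonk, not normalised, for 179 oocytes. How reads with several alignments, overlapping genes or strand were treated is not given in the sources used here. The 23161 gene model lines carried 21218 Ensembl IDs, and the 3622 lines with a repeated ID, holding 14.8% of counts, were added up per ID. No sequences or coordinates are given. Symbols were paired with 3608 IDs (17.0%) from the study's supplementary gene lists, some of which select genes on detection in these oocytes.

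The study's list of kept oocytes gives 165 IDs, matched here by ID. The totals in that list are those of 165 deposited oocytes, but 8 stand beside their own ID, and the 2 matchings differ by 2 oocytes each way. Matching by total was added as an alternative after seeing the data. Counts of the oocytes kept by ID were summed per size group and replicate, giving 16 sums over 8 size groups. Genes passing edgeR's filter (minimum count 10, minimum total 15) were scaled by TMM and tested with edgeR 4.0.16 (R 4.3.3, quasi-likelihood F test), with size group and replicate as terms, the contrast of the mean of the 4 groups of 70–109 μm minus the mean of the 2 groups of < 70 μm, and Benjamini-Hochberg adjustment over all 14087 genes. A gene was called at an adjusted p below 0.05 and is then written as upregulated or downregulated. The fit had 7 residual degrees of freedom and a common dispersion of 0.111. Standard errors were derived from the fold change and its F value. The replicate number comes from the labels, whose protocol describes libraries made in 2 replicates and sequenced at different read lengths, and same-numbered sums deviated together, with correlations of their deviations from the group means of 0.334 to 0.648 (median 0.543) over 28 pairs. As no animals are named, p-values measure a spread that may be technical. In the edgeR fit this is how far the replicates of a size group disagree, over all 8 size groups. Spread between size groups of a class does not enter there, whereas the permutation tests use the spread between size groups within a replicate. Reads carry no molecular identifiers, so floors and limits cover counting error only. Levels of sums are TMM-scaled CPM, and levels of single oocytes CPM of their total. For genes detected per oocyte and for the mitochondrially encoded mRNAs, means per size group and replicate were compared by exact permutation within replicates, over 225 arrangements.

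On counts simulated for this comparison with 200 of 14087 genes changed 4-fold, 197 (98.5%) were recovered, with 10 false among 207 calls. The changed genes were drawn above a floor of mean CPM and had the same change at every mid-growth size. Counts were drawn independently for each sum. Recovery was not measured for genes of low level, for smaller changes or for changes that grow with size. Genes are named by rule, namely the 15 upregulated and 15 downregulated genes of smallest adjusted p with a symbol and the same direction in both replicates, up to 4 called members (or 2 others) of each list and marker list, BMP15, 2 IDs without a symbol in each direction, and 3 genes in each direction between 70–79 and 100–109 μm. CCNB1, CDK1, ALDH1A2, ALDH1A3, COX1, ATP6 and ATP8 were added after their values were seen. The comparison and all lists were chosen with earlier results of these data known. Alternatives used DESeq2 1.42.0, ComBat-seq (sva 3.50.0), limma 3.58.1 as a part of edgeR, other scalings, filters, units and sets of oocytes.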

Additional observations from a re-analysis of the deposited data

Results flagged for a closer look

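In 8 of 178 groups of sums examined, 1 sum lay apart from the others of its size class by a gap that was a large share of the whole range, above the critical value of Dixon's test at the 0.05 level. Chance alone gives about 1 in 20. Values are log2(CPM + 1).

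Among the 4 sums of < 70 μm there were 3 such cases. BMP15 was low at 9.15 in the < 60 μm sum of replicate 1, against a median of 9.63 in the others (gap 0.9503 of the range). FGFBP1 was low in the same sum at 1.02 against 1.43 (gap 0.8721). That sum held 3 oocytes. CCL25 was high at 3.13 in the 60–69 μm sum of replicate 1, against 1.44 (gap 0.9264).

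Among the 8 sums of 70–109 μm, 4 of 5 cases were low values in the 100–109 μm sum of replicate 1, of which 1 oocyte supplied 52.9% of the counts. COX2 had 8.37 there against 10.36 (gap 0.602), CCT6A 5.07 against 6.13 (gap 0.5768), CHEK1 5.37 against 6.22 (gap 0.5668) and CACYBP 7.64 against 8.39 (gap 0.5359). COPZ2 was high at 3.71 in the 70–79 μm sum of replicate 1, against 2.48 (gap 0.5314).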

How the results depend on the processing

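Values are percentages of the genes tested under each setting, and the cause of the shifts was not tested. Beside 5.13% upregulated and 4.37% downregulated (722 and 616 genes), the fit with no replicate block, which ignores the pairing by replicate number, gave 0.128% and 0.0568% (18 and 8 genes). Single oocytes as units gave 17.0% and 22.1%, ComBat-seq counts of single oocytes 19.5% and 19.1%, and 1 sum per arm and replicate 2.82% and 0.558%. DESeq2 gave 8.55% upregulated (1181 genes). The share of upregulated genes among calls was 53.96%, but 43.44% with single oocytes, 69.23% with no replicate block and 83.47% with 1 sum per arm and replicate. Without < 60 μm the percentages were 0.963% and 0.215%, without 60–69 μm 3.09% and 2.58%, without 100–109 μm 2.18% and 0.527%, and without 90–99 μm 2.34% were downregulated. Leaving out 1 sum gave 2.29% to 7.79% upregulated and 1.12% to 4.67% downregulated. The upregulated count moved by over 1.5 times without < 60 μm in replicate 1 (2.48%) or 2 (7.79%) and without 60–69 μm in replicate 1 (2.29%) or 2 (2.65%). The downregulated count did so without < 60 μm in replicate 1 (1.25%), 60–69 μm (1.12% and 1.13%), 70–79 μm (2.33% and 2.59%), 80–89 μm (2.6% and 2.1%) or 90–99 μm (2.25% and 2.23%) in replicates 1 and 2, or 100–109 μm in replicate 1 (2.14%).

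For 70–79 against 100–109 μm, 0.838% (118 genes) became 1.9% with oocytes thinned to 250000 counts, 13.2% with ComBat-seq counts, 4.09% with DESeq2, 0.135% with all 179 oocytes, 2.0% with no filter, 14.5% with single oocytes, 0.461% with oocytes matched to the list by their total (chosen after seeing the data), 0.271% without the dominant oocyte, and 0 genes with no replicate block (567 at an unadjusted p below 0.05 in edgeR). Leaving out 1 sum gave 0.00677% to 1.97%, with 1.97% and 1.94% without < 60 μm in replicates 1 and 2, and 1.55% without 100–109 μm in replicate 2. The difference in genes detected was -286.8 on unthinned counts, and ranged from -13.9 (without < 60 μm in replicate 2) to 156 when 1 value was left out. That of the mitochondrially encoded mRNAs was -0.71 (exact p = 0.053) as a share of the summed counts and -0.70 (exact p = 0.058) with TMM scaling, and ranged from -0.85 to -0.58 when 1 value was left out. Of 67 named genes called, 10 kept their call in every alternative run for them. CD163 ranged from -3.74 to 0.21 when 1 sum was left out, the positive value without < 60 μm in replicate 2, and it was the only named gene whose fold change changed sign. Depth limits what can be said of genes near 0 counts.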
